A study of Mus musculus with 6 samples.

Results

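The effectors of the ATF4-CHOP pathway and the genes that feed back on eIF2alpha phosphorylation were followed in the white adipose tissues (WATs) of mice with and without adipocyte Ntsr2, the neurotensin receptor 2. They are 10 genes, Atf4, Atf5, Atf3, Ddit3, Trib3, Ppp1r15a, Ppp1r15b, Chac1, Sesn2 and Ddit4, chosen by name from knowledge of the pathway. Earlier results of these data were known when the genes were chosen. All 10 were found among the 21456 genes of the deposited table, and all 10 passed the filter on low values. RNA-seq had been performed on WATs of 3 control mice, which were Ntsr2 flox/flox, and of 3 Ntsr2 AKO mice, which were Adipoq-cre::Ntsr2 flox/flox, all fed a chow diet. Both groups thus carried the floxed alleles, and Cre under the Adipoq promoter removes Ntsr2 from adipocytes, while the other cells of the fat pad keep it. The age, the sex and the fat depot of these mice are not given in the sources used here. Within each group the mice are numbered 3, 4 and 5, as in the labels.

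The integrated stress response begins with kinases that phosphorylate the translation factor eIF2alpha, PERK in the endoplasmic reticulum among them. General translation then slows, while the mRNA of the transcription factor ATF4 is translated more. ATF4 and its target CHOP, the product of Ddit3, switch on genes for amino acid supply, redox balance and cell death, and also Ppp1r15a, whose product brings a phosphatase to eIF2alpha and so ends the response. In adipose tissues the response is known from overnutrition and from amino acid shortage. Much of its control is on translation and phosphorylation, which mRNA levels do not show.

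The table holds normalized counts, that is reads per gene scaled by 1 size factor in each sample. The recovered totals were between 60405373 and 66098226 reads in control mice and between 54085088 and 56268725 in Ntsr2 AKO mice. Every Ntsr2 AKO mouse thus had fewer reads than every control mouse. Ntsr2 had normalized counts of 83.8, 64.0 and 153 in control mice 3, 4 and 5 and of 3.10, 8.29 and 0 in Ntsr2 AKO mice 3, 4 and 5, and the labelled groups did not overlap. The 10 adipocyte marker genes together held between 3.91% and 5.76% of all normalized counts in each mouse, and their median log2 fold change was 0.00. The 12 skeletal muscle genes held 4.56% of the normalized counts in control mouse 5, 0.173% in Ntsr2 AKO mouse 4 and 0.370% in Ntsr2 AKO mouse 5, against at most 0.00662% in the other 3 mice. These 3 mice stand apart in this respect, and values of the 10 genes without them are given beside the results. Markers of other cell types varied too. The 7 fibroblast and progenitor genes held 0.919% in Ntsr2 AKO mouse 5 and between 0.294% and 0.487% in the other mice. The 7 macrophage genes held between 0.0550% and 0.145% in each mouse. These are bulk tissues, in which fewer cells of a type and less RNA per cell cannot be told apart.

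Of the 10 genes, 0 passed an adjusted p of 0.05 in limma, in which 0.00619% of the 16157 genes tested passed in either direction. That is 1 gene, the immediate early gene Egr1, which was lower in Ntsr2 AKO mice (limma, adjusted p = 0.0442). At an unadjusted p under 0.05, limma gave 2 of the 10 genes, Atf3 and Atf4, both lower in Ntsr2 AKO mice, where 5.27% of all genes were lower at that level and 8.35% differed in either direction. On the recovered reads, edgeR and DESeq2 also called 0 of the 10 genes after adjustment, while DESeq2 called 1.36% of all genes, with 0.953% lower and 0.408% higher. At an unadjusted p under 0.05 edgeR gave 2 and DESeq2 gave 3, which were Atf3, Atf4 and Chac1. The shares over all genes at that level were not counted for these tools, so their counts cannot be judged against them. Every Ntsr2 AKO mouse lay below every control mouse for 2 of the 10 genes, again Atf3 and Atf4, where 8.16% of all genes had such a separation. The log2 fold change was below 0 for 8 of the 10 genes, against 51.0% of all genes. The median over the 10 genes was -0.31, beside -0.01 over all genes tested, and it was -0.074 without the 3 mice with skeletal muscle transcripts. Leaving out these 3 mice leaves 2 control mice and 1 Ntsr2 AKO mouse, so a separation of the groups there would rest on 1 mouse. The adjusted p in limma ranged from 0.535 to 0.887 over the 10 genes. The samples carry separate numbers and are taken as separate mice, and the p-values measure only the spread between these samples, which may be technical.

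**Figure D1:**
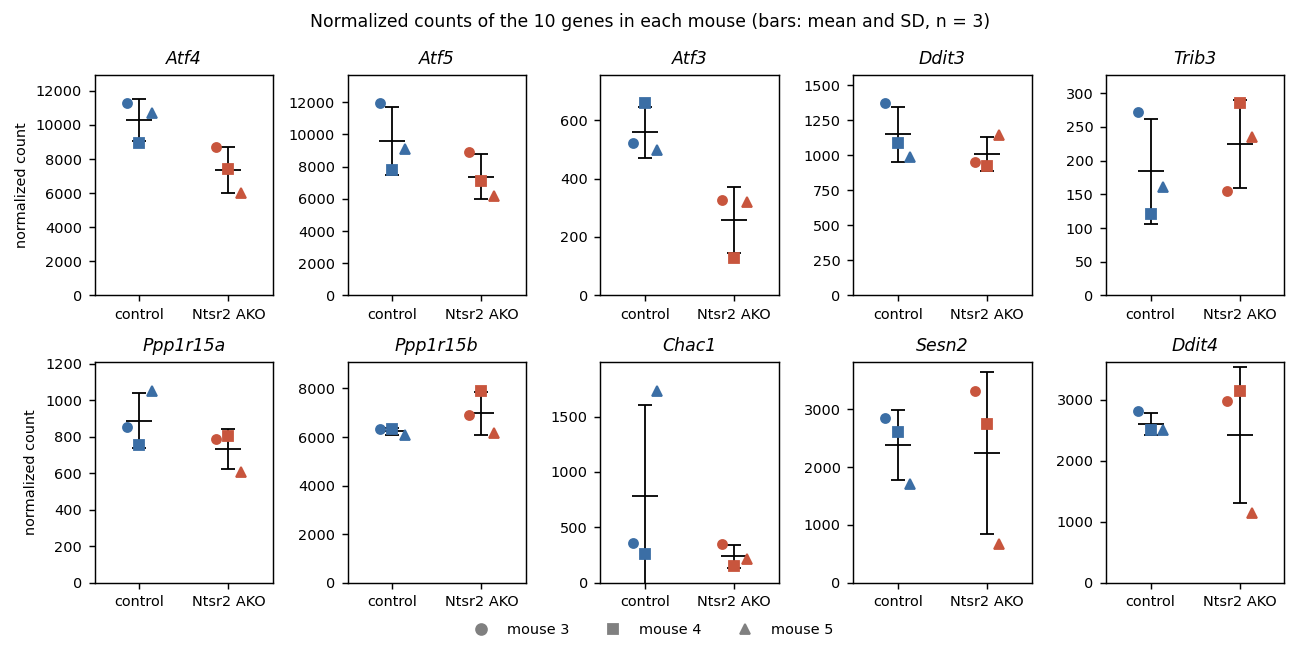
Normalized counts (y axis, from 0) of each of the 10 genes in the 3 control and 3 Ntsr2 AKO mice. Symbols mark mouse numbers, which were not taken to link mice across the groups, and black bars mark the mean and SD (n = 3). The groups are separate for Atf4 and Atf3 only, control mouse 5 stands alone for Chac1 with a bar that runs below 0 and is cut there, and Ntsr2 AKO mouse 5 is lowest for Sesn2 and Ddit4.

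Promoters of the genes were searched for the sites that ATF4 is known to bind. ATF4 pairs with C/EBP proteins on a composite site, which was searched as TGATGNAA, and bZIP factors such as ATF3 and CREB bind the palindromic cAMP response element (CRE), TGACGTCA. Both strands were searched over the 250 bases before each RefSeq transcription start on GRCm38.p6, and overlaps between the motifs were not removed. Of the 10 genes 9 had a RefSeq promoter, with 10 promoters in all, and Ppp1r15b had none in the table used. The composite motif was found for Atf3, 110 bases before the start, and for Chac1, 193 bases before it, where 3.45% of 32851 promoters of the same length hold it. The CRE was found for Ppp1r15a, 12 bases before the start, where 1.55% of the promoters hold it. The 3 stretches are shown because they carry these matches, which are in capitals, with up to 45 bases on each side. They are read on the strand of the gene, on which the composite motif appears as its reverse complement. Atf3 lies at chr1:191183391-191183488 (minus strand), Chac1 at chr2:119351004-119351101 (plus strand) and Ppp1r15a at chr7:45526269-45526325 (minus strand).
Atf3: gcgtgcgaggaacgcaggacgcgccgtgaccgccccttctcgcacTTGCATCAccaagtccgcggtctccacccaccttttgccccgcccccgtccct
Chac1: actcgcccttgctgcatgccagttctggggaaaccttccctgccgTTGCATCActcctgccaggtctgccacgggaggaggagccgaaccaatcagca
Ppp1r15a: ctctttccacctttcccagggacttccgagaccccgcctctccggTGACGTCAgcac
Atf3 and Chac1 share the same 8 letters, TTGCATCA. A match is a description of the sequence, and binding was not measured.

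The transcription factors at the head of the pathway are Atf4 and Atf5, which are both controlled by upstream open reading frames. Atf4 (chr15:80255184-80257541, GRCm38) had normalized counts of 11264, 8919 and 10675 in control mice 3, 4 and 5 and of 8725, 7386 and 6002 in Ntsr2 AKO mice 3, 4 and 5. The lowest control mouse lay just above the highest Ntsr2 AKO mouse, so the groups did not overlap but nearly met. The means were 10286 ± 1220.1 in controls and 7371 ± 1361 in Ntsr2 AKO mice (SD, n = 3 each). In limma the log2 fold change was -0.49 with a standard error of 0.17, and it did not pass the test (limma, adjusted p = 0.564). It remained below 0 with the omission of any 1 mouse, from -0.62 to -0.35, and without the 3 mice with skeletal muscle transcripts it was -0.20. After quantile normalization the log2 fold change was -0.38, and the groups overlapped.

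Atf5 encodes a bZIP factor that takes part in the mitochondrial branch of the stress response. Atf5 (chr7:44812256-44816658) had normalized counts of 11931, 7767 and 9077 in control mice and of 8886, 7078 and 6152 in Ntsr2 AKO mice. The groups overlapped, since control mouse 4 lay below Ntsr2 AKO mouse 3. The log2 fold change was -0.37 with a standard error of 0.21 (limma, adjusted p = 0.649). Without the 3 mice with skeletal muscle transcripts it was -0.12. Exons of Atf5 overlap those of Il4i1 and Nup62 on the opposite strand, and the kit does not mark strand, so reads from the shared bases cannot be assigned. The log2 fold changes of these neighbours were -0.95 for Il4i1 (limma, adjusted p = 0.575) and -0.48 for Nup62 (limma, adjusted p = 0.523).

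Atf3 and Ddit3 encode factors that act next, and both are known as targets of ATF4. Atf3 (chr1:191170296-191218039) is also an immediate early gene, induced within minutes by many stimuli. It had normalized counts of 521, 657 and 497 in control mice and of 328, 129 and 319.8 in Ntsr2 AKO mice. All Ntsr2 AKO mice lay below all control mice, with Ntsr2 AKO mouse 4 lowest. The means were 558 ± 86.4 and 259 ± 113 (SD, n = 3 each), so that the Ntsr2 AKO mean was 46.4% of the control mean. Its log2 fold change was -1.21 with a standard error of 0.38, and it did not pass the test (limma, adjusted p = 0.535). DESeq2 on the recovered reads gave an adjusted p of 0.157, the lowest of any alternative for Atf3, and the highest was 0.9997. Without Ntsr2 AKO mouse 4 the log2 fold change was -0.77, which was its weakest value with 1 mouse omitted, and without the 3 mice with skeletal muscle transcripts it was -0.83.

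The values of other immediate early genes stand beside those of Atf3. The summed normalized counts of 14 such genes, Fos, Junb and Egr1 among them, were 41917, 27415 and 39427 in controls and 19944, 18735 and 18201 in Ntsr2 AKO mice. All 14 had log2 fold changes below 0, against 51.0% of all genes, with a median of -1.12. Every Ntsr2 AKO mouse lay below every control mouse for 10 of the 14, against 8.16% of all genes, and the groups overlapped for Jun, Egr3, Nr4a1 and Dusp1. Egr1 alone of the 14 was called by limma, which called 0.00619% of all genes. DESeq2 called 5 of the 14, Egr1, Fos, Fosb, Ier3 and Junb, all lower, where it called 0.953% of all genes lower. edgeR called 0 of the 14. For Fos the adjusted p was 1.15e-12 in DESeq2 and 0.227 in edgeR. Fos had normalized counts of 546, 527 and 575 in control mice and of 165, 114 and 159.9 in Ntsr2 AKO mice, with a log2 fold change of -1.92 (limma, adjusted p = 0.160). This list was written with earlier results of these data known, and its part in the values of Atf3 was not tested.

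Ddit3 encodes CHOP, the factor that links a prolonged response to cell death. Ddit3 (chr10:127290774-127296288) had normalized counts of 1370.4, 1089 and 986 in control mice and of 952, 927 and 1145 in Ntsr2 AKO mice. The groups overlapped, with Ntsr2 AKO mouse 5 above control mice 4 and 5. In limma the log2 fold change was -0.18 with a standard error of 0.17 (limma, adjusted p = 0.787). Without Ntsr2 AKO mouse 5 the remaining Ntsr2 AKO mice lay below all control mice, and without the 3 mice with skeletal muscle transcripts the log2 fold change was -0.36. Exons of Ddit3 overlap those of Mars and Gm4189 on the opposite strand, and the log2 fold change of Mars, the methionyl-tRNA synthetase gene, was -0.10 (limma, adjusted p = 0.823).

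Trib3 encodes a pseudokinase that is induced by ATF4 and CHOP, holds back CHOP and is known to bind AKT. Trib3 (chr2:152337422-152344032) had normalized counts of 271, 121 and 161 in control mice and of 155, 285 and 235 in Ntsr2 AKO mice. The groups overlapped over most of their range. The log2 fold change was 0.32 with a standard error of 0.38 (limma, adjusted p = 0.825), and without the 3 mice with skeletal muscle transcripts it was -0.22. Trib3 and Ppp1r15b were the 2 genes of the group with log2 fold changes above 0.

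**Figure D2:**
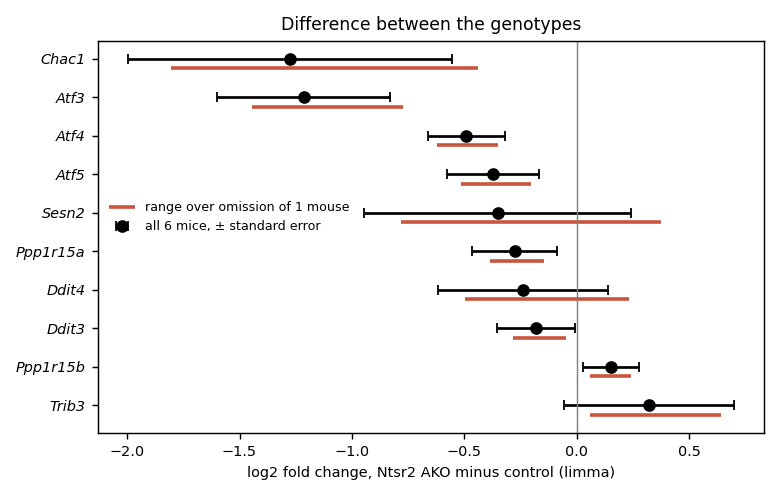
Log2 fold changes (x axis, Ntsr2 AKO minus control, limma) of the 10 genes, with black points and bars for the estimate and its standard error over 6 mice, and red lines for the range when each mouse in turn was omitted. The red lines of Sesn2 and Ddit4 cross 0, and those of the other 8 genes do not.

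The feedback on eIF2alpha has an inducible and a constitutive arm. Ppp1r15a encodes GADD34, the inducible subunit that directs protein phosphatase 1 to eIF2alpha, and Ppp1r15b encodes CReP, its constitutive counterpart. Ppp1r15a (chr7:45522916-45526268) had normalized counts of 856, 757 and 1052 in control mice and of 788, 801 and 608 in Ntsr2 AKO mice. The groups overlapped, as control mouse 4 lay below Ntsr2 AKO mice 3 and 4. Its log2 fold change was -0.28 with a standard error of 0.19 (limma, adjusted p = 0.707). Without the 3 mice with skeletal muscle transcripts it was -0.032. Its exons overlap those of Tulp2 on the opposite strand, whose mean normalized counts of 37.0 ± 3.02 in control and 37.4 ± 11.4 in Ntsr2 AKO mice (SD, n = 3 each) were small beside those of Ppp1r15a.

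Ppp1r15b (chr1:133131143-133139783) had normalized counts of 6319, 6341 and 6078 in control mice and of 6892, 7911 and 6146 in Ntsr2 AKO mice. The control mice were close together, with the highest at 1.04 times the lowest, and Ntsr2 AKO mouse 5 fell within their range. In limma the log2 fold change was 0.15 with a standard error of 0.12 (limma, adjusted p = 0.757). Without the 3 mice with skeletal muscle transcripts it was 0.12. After quantile normalization it was 0.27, and every Ntsr2 AKO mouse then lay above every control mouse. Its exons overlap Gm26616 on the opposite strand. Of the 10 genes Ppp1r15b varied least within the groups, at the percentile 13.8 of the within-group SD over all genes tested.

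Ratios within a mouse do not depend on the size factor. The log2 ratio of Ppp1r15a to Ppp1r15b was -2.88, -3.06 and -2.53 in controls and -3.13, -3.30 and -3.33 in Ntsr2 AKO mice. All Ntsr2 AKO mice lay below all control mice, and the means were -2.83 ± 0.27 and -3.25 ± 0.11 (SD, n = 3 each). The difference of -0.43 had p = 0.10 in an exact two-sided permutation test, which is the smallest p that 3 against 3 mice allow, and 0.30 after adjustment over 3 ratios. Without control mouse 5 the difference was -0.28, the weakest with 1 mouse omitted. Control mouse 4, at -3.06, and Ntsr2 AKO mouse 3, at -3.13, nearly met. Without the 3 mice with skeletal muscle transcripts, control mice 3 and 4, at -2.88 and -3.06, and Ntsr2 AKO mouse 3, at -3.13, remain. The difference between them was not computed. Ppp1r15a mRNA was thus at 0.141 of Ppp1r15b mRNA by normalized count in controls and at 0.105 in Ntsr2 AKO mice, as geometric means.

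The ratios of Ddit3 and Atf3 to Atf4 set target genes beside the factor that controls them. The log2 ratio of Ddit3 to Atf4 was -3.04, -3.03 and -3.43 in controls and -3.20, -2.99 and -2.39 in Ntsr2 AKO mice. The groups overlapped, and the difference of 0.31 had an exact permutation p of 0.40, also 0.40 after adjustment. Without Ntsr2 AKO mouse 5 this difference was 0.074, without control mouse 5 it was 0.18, and without Ntsr2 AKO mouse 3 it was 0.48. Without the 3 mice with skeletal muscle transcripts, Ntsr2 AKO mouse 3, at -3.20, lay below control mice 3 and 4, at -3.04 and -3.03. That is against the direction over all mice. The log2 ratio of Atf3 to Atf4 was -4.43, -3.76 and -4.42 in controls and -4.73, -5.83 and -4.23 in Ntsr2 AKO mice. These groups overlapped too, and the difference of -0.72 had an exact permutation p of 0.30, or 0.40 after adjustment. Without Ntsr2 AKO mouse 4 this difference was -0.27. Without the 3 mice with skeletal muscle transcripts, Ntsr2 AKO mouse 3, at -4.73, lay below control mice 3 and 4, at -4.43 and -3.76. That is the direction over all mice.

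**Figure D3:**
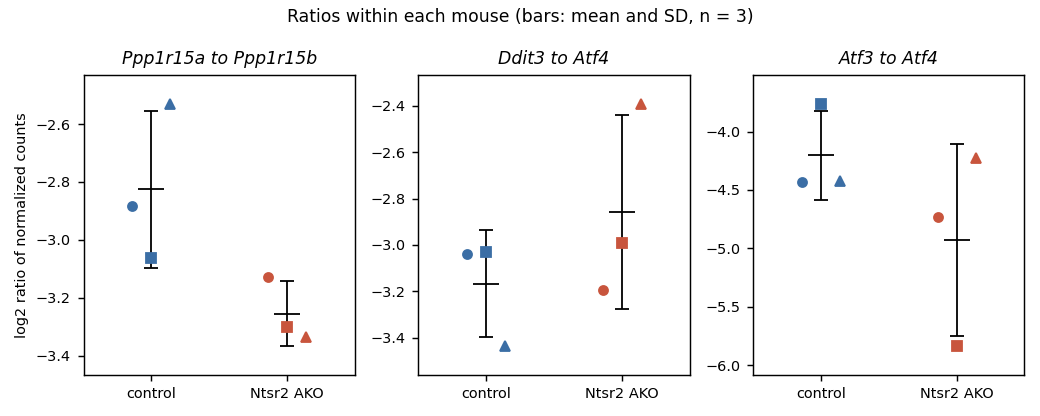
Log2 ratios of normalized counts within each mouse (y axes, which differ in range) for Ppp1r15a to Ppp1r15b, Ddit3 to Atf4 and Atf3 to Atf4, with points for mice and bars for the mean and SD (n = 3). The Ntsr2 AKO mice all lie below the control mice for the ratio of the phosphatase subunits, and the groups overlap for the other ratios.

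Chac1, Sesn2 and Ddit4 are effectors. Chac1 encodes an enzyme that degrades glutathione, and it is a target of ATF4 and ATF3. Chac1 (chr2:119351229-119354381) had normalized counts of 357, 260.0 and 1733 in control mice and of 353, 150.3 and 213 in Ntsr2 AKO mice. Control mouse 5 stood alone, at 6.67 times the lowest control mouse, and the other control mice overlapped the Ntsr2 AKO mice. The log2 fold change was -1.28 with a standard error of 0.72 (limma, adjusted p = 0.662), the lowest log2 fold change of the 10 genes. Without control mouse 5 it was -0.44. Control mouse 5 was also the mouse with the highest sum of skeletal muscle transcripts, 4.56% of its normalized counts. With a skeletal muscle score as a covariate the log2 fold change of Chac1 was -1.36, and without the 3 mice with such transcripts it was 0.21. Among the Ntsr2 AKO mice, mice 4 and 5, which held such transcripts, were lower for Chac1 than mouse 3. The part of skeletal muscle in the values of Chac1 was not tested.

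Sesn2 encodes sestrin 2, a leucine sensor that restrains mTORC1 and counters oxidative stress. Sesn2 (chr4:132492032-132510501) had normalized counts of 2848, 2602 and 1704 in control mice and of 3322, 2747 and 667 in Ntsr2 AKO mice. The Ntsr2 AKO group held both the highest and the lowest mouse. Its log2 fold change was -0.35 with a standard error of 0.59 (limma, adjusted p = 0.887). Without Ntsr2 AKO mouse 5 it was 0.38, and without the 3 mice with skeletal muscle transcripts it was 0.29.

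Ddit4 encodes REDD1, an inhibitor of mTORC1 that is known to be induced by ATF4, hypoxia and glucocorticoids. Ddit4 (chr10:59949669-59951834) had normalized counts of 2808, 2501 and 2498 in control mice and of 2969.6, 3147 and 1143 in Ntsr2 AKO mice. Ntsr2 AKO mouse 5 lay below all other mice, and Ntsr2 AKO mice 3 and 4 lay above all control mice. In limma the log2 fold change was -0.24 with a standard error of 0.38 (limma, adjusted p = 0.878), without Ntsr2 AKO mouse 5 it was 0.23, and without the 3 mice with skeletal muscle transcripts it was 0.16. The sum of 10 glucocorticoid target genes was also lowest in that mouse, at 47961 normalized counts, against 92652 and 86309 in Ntsr2 AKO mice 3 and 4 and between 124342 and 208934 in control mice. In Ntsr2 AKO mouse 5 the sum of 12 hypoxia target genes was 160238 normalized counts. It was 159622 and 157551 in Ntsr2 AKO mice 3 and 4 and between 162659 and 222578 in control mice. The part of glucocorticoids or of hypoxia in the values of Ddit4 and Sesn2 was not tested.

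The spread between mice differed among the 10 genes. On the log2 scale the within-group SD was 1.12 for Chac1, 0.94 for Sesn2, 0.58 for Ddit4, 0.56 for Atf3 and 0.52 for Trib3, where the median over all genes tested was 0.30. These values lay at the percentiles 91.2, 88.5, 76.7, 75.3 and 72.9 of all genes. The SDs of Atf4, Atf5, Ddit3, Ppp1r15a and Ppp1r15b were between 0.13 and 0.29, below that median.

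Levels were compared between genes as normalized counts per kb of the union of exons in GENCODE M21. In control mice Atf5 had 4813 ± 1068 and Atf4 had 4362 ± 517 normalized counts per kb (SD, n = 3), and their ranges overlapped. Ddit4 followed with 1483 ± 102 and Ppp1r15b with 1117 ± 26.1, and the ranges of these neighbours in the order did not overlap. Next came Sesn2 with 686 ± 173, Ddit3 with 671 ± 116, Chac1 with 479 ± 503, Ppp1r15a with 303 ± 51.1 and Atf3 with 259 ± 40.1, each of which overlapped the next. Trib3 was lowest, with 86.8 ± 36.7 normalized counts per kb and no overlap with Atf3. In Ntsr2 AKO mice Atf3 had 120.2 ± 52.4 and Trib3 had 106 ± 30.9 normalized counts per kb, and their ranges overlapped. The constitutive Ppp1r15b thus had a higher level per length than the inducible Ppp1r15a in every mouse.

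**Figure D4:**
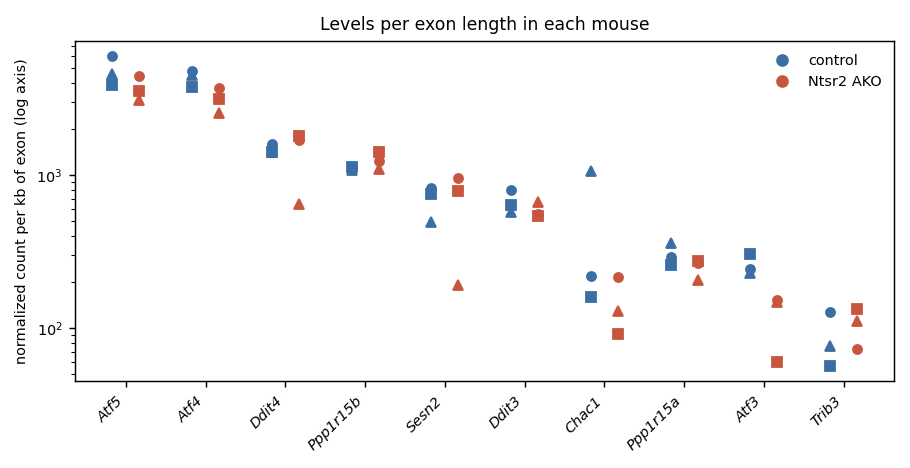
Normalized counts per kb of exon (y axis, log scale) of the 10 genes in each control (blue) and Ntsr2 AKO (red) mouse, ordered by the control mean. Atf5 and Atf4 are highest in both groups, and Trib3 lies below Atf3 in control mice but overlaps it in Ntsr2 AKO mice.

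The genes whose patterns over the 6 mice were most like those of the members were found by the root mean square difference of centred log2 values among the other genes tested. For Atf4 they were Dhx37, Ubap2 and Ccdc137, at differences of 0.032, 0.045 and 0.051. For Atf5 they were Kctd10, Stat6 and Wasf2, at 0.043, 0.049 and 0.054. Atf4 and Atf5 were each other's nearest member, at 0.12. The nearest genes to Atf3 were Cd300lb, Gas2l3 and BC046401, at 0.17, 0.17 and 0.18, while its nearest member was Atf4, at 0.64. For Ppp1r15a they were Dlg1, Otud7b and Smg1, at 0.022, 0.044 and 0.046. For Ppp1r15b they were Akap8, Mterfd1 and Xrcc3, at 0.024, 0.026 and 0.033. Sesn2 was nearest to Shroom3, at 0.13, and Ddit4 to Tle3, at 0.13, and both were each other's nearest member, at 0.34. For Chac1 the nearest was farther away, Loxl4 at 0.31. These differences rest on 6 mice and carry no test.

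The other genes of the integrated stress response were taken from 74 listed genes, of which 72 were in the table and 70 were tested. limma called 0 of the 70 after adjustment, and at an unadjusted p under 0.05 it gave 18 that were lower and 1 that was higher in Ntsr2 AKO mice. Over all genes, 5.27% were lower and 3.08% were higher at that level. The log2 fold change was below 0 for 56 of the 70 genes and above 0 for 14, with a median of -0.24. Every Ntsr2 AKO mouse lay below every control mouse for 17 of the 70 and above for 2, against 8.16% and 6.82% of all genes. edgeR called 0 of the 70 genes and DESeq2 called 2, Trib1 and Slc7a5, both lower, where DESeq2 called 0.953% of all genes lower. The list was written with earlier results of these data known.

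The aminoacyl-tRNA synthetases, which charge tRNAs with amino acids and are known targets of ATF4, had the most separated genes among the 7 lists of other stress response genes. All 12 had log2 fold changes below 0, with a median of -0.40. For 8 of them, Aars, Cars, Eprs, Iars, Nars, Tars, Wars and Yars, every Ntsr2 AKO mouse lay below every control mouse, against 8.16% of all genes. limma called 0 of the 12 after adjustment, and 8 were lower at an unadjusted p under 0.05, where 5.27% of all genes were lower. Wars, the gene for tryptophanyl-tRNA synthetase, had normalized counts of 2816, 2966 and 3360.4 in control mice and of 2521, 2056 and 1915 in Ntsr2 AKO mice, and its log2 fold change was -0.50 (SE 0.14, limma, adjusted p = 0.522). Aars had 5975, 6087 and 6216 in controls and 5247, 4086 and 4497 in Ntsr2 AKO mice, with a log2 fold change of -0.41 (SE 0.12, limma, adjusted p = 0.523). Tars had 3433, 3934 and 4377 in controls and 3257, 2524 and 2499 in Ntsr2 AKO mice, with a log2 fold change of -0.51 (SE 0.16, limma, adjusted p = 0.523). In Tars, the gene for threonyl-tRNA synthetase, Ntsr2 AKO mouse 3 was close to the lowest control mouse, and in Aars, for alanyl-tRNA synthetase, the groups were farther apart.

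Amino acid transport and one-carbon metabolism are other branches of the ATF4 programme. Of the 9 amino acid transporters 8 had log2 fold changes below 0, with a median of -0.45. For 1 of the 9 all Ntsr2 AKO mice lay below the control mice, and for 1 all lay above. Over all genes these shares were 8.16% and 6.82%. The lower one was Slc7a5, which encodes LAT1, the light chain of a leucine transporter, with normalized counts of 289, 474 and 388 in control mice and of 155, 93.3 and 144 in Ntsr2 AKO mice. Its log2 fold change was -1.55 (SE 0.30), with an adjusted p of 0.499 in limma and of 0.00119 in DESeq2, and from 0.00119 to 0.9997 over the alternatives. The higher one was Slc7a3, a carrier of cationic amino acids, with normalized counts of 35.9, 29.9 and 9.59 in control mice and of 65.0, 85.0 and 58.7 in Ntsr2 AKO mice, and its log2 fold change was 1.60 (SE 0.57, limma, adjusted p = 0.565). Of the 13 genes of amino acid and one-carbon metabolism 7 had log2 fold changes below 0 and 6 above, with a median of -0.13. For 2 of the 13 all Ntsr2 AKO mice lay below the control mice, and for 1 all lay above, against the same 8.16% and 6.82% of all genes. The gene above was the alanine transaminase gene Gpt2, with a log2 fold change of 0.08 (SE 0.10, limma, adjusted p = 0.834). Both separated lower genes encode mitochondrial enzymes of the folate cycle. Shmt2 had normalized counts of 1134, 1148 and 1235 in control mice and of 901, 830.2 and 776 in Ntsr2 AKO mice, with a log2 fold change of -0.49 (SE 0.13, limma, adjusted p = 0.522). Mthfd2 had 405, 499 and 351 in controls and 276, 216 and 288 in Ntsr2 AKO mice, with a log2 fold change of -0.68 (SE 0.22, limma, adjusted p = 0.545).

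Among 10 bZIP partners and other regulators of the integrated stress response, 8 had log2 fold changes below 0, with a median of -0.43. Trib1, a paralogue of Trib3 that directs C/EBPalpha to degradation, had normalized counts of 4134, 2658 and 2744 in control mice and of 1327, 1392 and 1530.2 in Ntsr2 AKO mice. All Ntsr2 AKO mice lay below all control mice, which was not so for Trib3. Its log2 fold change was -1.14 (SE 0.19), with an adjusted p of 0.499 in limma and of 0.000143 in DESeq2, and from 0.000143 to 0.9997 over the alternatives. The 6 secreted and signalling targets of ATF4 that were tested had 4 log2 fold changes below 0 and 2 above, with a median of -0.060 and a range from -1.58 to 0.32. The lowest was that of Gdf15, a secreted factor of the stress response that acts on appetite through the brainstem. It had normalized counts of 47.9, 70.2 and 89.2 in control mice and of 34.1, 22.8 and 13.2 in Ntsr2 AKO mice. These rest on 52, 68 and 93 reads in control mice and on 33, 22 and 13 reads in Ntsr2 AKO mice, and the log2 fold change was -1.58 (SE 0.50, limma, adjusted p = 0.532). Upstream, 11 of the 12 genes for eIF2alpha kinases and for eIF2 and eIF2B subunits had log2 fold changes below 0, with a median of -0.13 and a range from -0.39 to 0.01. Of the 8 CHOP targets and cell death genes tested, 6 were below 0, with a median of -0.22.

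**Figure D5:**
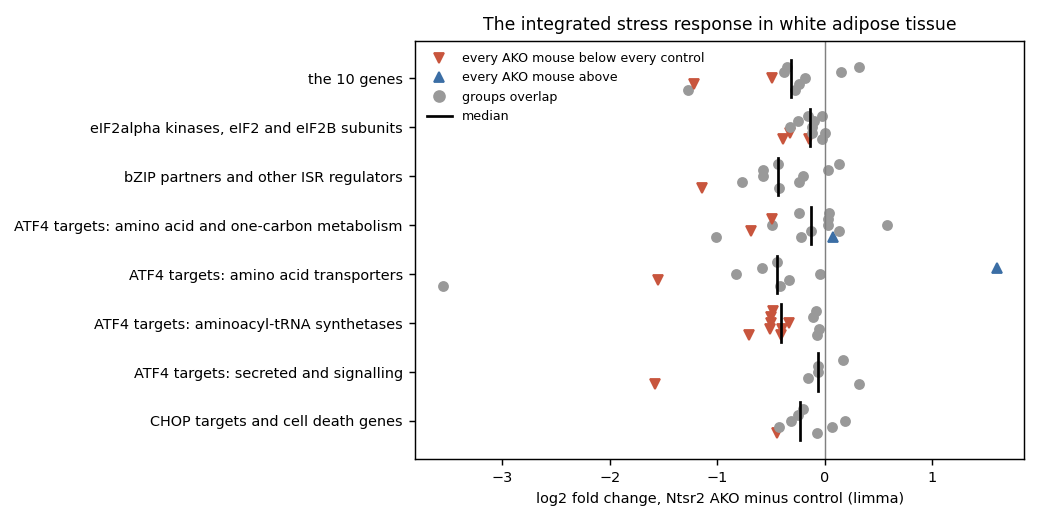
Log2 fold changes (x axis, Ntsr2 AKO minus control, limma) of the 10 genes and of the other genes of the integrated stress response by list, with red triangles where every Ntsr2 AKO mouse lay below every control mouse, blue triangles where every one lay above, grey circles where the groups overlapped and black lines for medians. Of the 12 aminoacyl-tRNA synthetases 8 are red, and the median of every list is below 0.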

How the data were processed

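The authors deposited normalized counts (a signal table), in which the gene counts of each mouse are divided by a size factor. Their methods name Trimmomatic, Hisat2, StringTie and DESeq2, and the submitters' processing notes name mm10. The libraries were made with a kit that does not mark strand. All values (100%) came out whole when divided by the step of each column (tolerance 1e-06), which gave the recovered reads. At this depth the 3 mice per group, more than counting error, limit the precision. limma 3.58.1 (R 4.3.3, mean-variance trend, Benjamini-Hochberg) was run on log2(normalized count + 1) for genes with a mean of at least 10. A fold change is on that scale. edgeR 4.0.16 (quasi-likelihood, TMM) and DESeq2 1.42.0 were alternatives on the recovered reads, since the deposited values are not counts. Ratios were compared by exact permutation tests over mice (scipy 1.17.1).

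The members, the lists and the tests were chosen with earlier results of these data known. The genes named are all 10 members, the 8 other pathway genes with the smallest p and Gdf15, which is among them, Ntsr2, and for each member the 3 genes with the most similar pattern, of which the text gives most. The immediate early genes named, Slc7a3 and Gpt2 were chosen after their values were seen. Other alternatives were the pseudocount, the filter, quantile normalization, eBayes without the trend, thinning to equal depth, a skeletal muscle score as a covariate, the replicate number as a block and the omission of each mouse. The omission of the 3 mice with skeletal muscle transcripts was added after the data were seen. Positions and exons are from GENCODE M21 on GRCm38, the build also called mm10, and promoters are from RefSeq on GRCm38.p6. Matches to genes were made by symbol. The procedure was tested on simulated counts.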

Additional observations from a re-analysis of the deposited data

How the results depend on the processing

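The 10 genes gave 0 calls after adjustment in every alternative, and so did the other pathway genes except with DESeq2, which called 2. Over all genes the count was 1, with 220 in DESeq2 and 0 in edgeR, without the filter, with eBayes without the trend, with the skeletal muscle score as a covariate and without the 3 mice with skeletal muscle transcripts. It was 0 with the omission of any 1 mouse (0 to 0). Without those 3 mice, a choice made after seeing the data that leaves 1 Ntsr2 AKO mouse assumed to vary like the control mice, the log2 fold changes were -0.22 for Trib3, 0.21 for Chac1, 0.29 for Sesn2 and 0.16 for Ddit4, against the direction over all mice, and the median of the 10 genes was -0.074. Without Ntsr2 AKO mouse 5 the values were 0.38 for Sesn2 and 0.23 for Ddit4, also reversed, and with the omission of 1 mouse they ranged from -0.78 to 0.38 and from -0.50 to 0.23. The log2 fold changes of Atf3, Atf4, Atf5, Ddit3, Ppp1r15a and Ppp1r15b kept their direction in all 18 alternatives. After quantile normalization the median log2 fold change of all genes was 0.045, beside -0.01 with the deposited normalization. The count of genes with every Ntsr2 AKO mouse below every control mouse was 2. It was 1 after quantile normalization and 2 to 5 with the omission of 1 mouse. It was 5 without control mouse 4, 4 without Ntsr2 AKO mouse 3 and 3 without Ntsr2 AKO mouse 5. In the last of these, 2 genes, Ppp1r15b and Ddit4, had the remaining Ntsr2 AKO mice above every control mouse. Groups of fewer mice separate more often by chance. The share over all genes was not counted with a mouse omitted, so these counts cannot be set against the count over all mice. The median of the 10 genes was between -0.49 and -0.20 with the omission of 1 mouse. The cause of these changes was not tested.

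Mice with the same number had deviations from their group means that correlated at 0.45, -0.24 and 0.41 across genes for numbers 3, 4 and 5. Between mice with different numbers the correlations ranged from -0.52 to 0.26. These values do not settle whether the numbers pair the mice, and the main tests treated the mice as unpaired. A fit with a block for that number called 0 genes over all genes, 0 of the 10 genes and 0 of the other pathway genes. In that block the exact sign-flip test of the ratio of Ppp1r15a to Ppp1r15b, with the same difference of -0.43, had p = 0.25, the smallest that 3 pairs allow.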
